A study of Mus musculus with 2 samples.

Results

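The 6 miRNAs described here are among the myomiRs, miRNAs best known from skeletal and cardiac muscle: miR-1a-3p, miR-133a-3p, miR-133b-3p, miR-206-3p, miR-208a-3p and miR-499-5p. They were measured in smooth muscle cells grown from the pulmonary arteries of mice, which are vascular rather than striated muscle. The members were chosen by their miRBase mature-sequence identifiers, in that order MIMAT0000123, MIMAT0000145, MIMAT0000769, MIMAT0000239, MIMAT0000520 and MIMAT0003482. All 6 identifiers were found among the 739 features of the array table, each on a row of its own. The choice by identifier uses no intensity, although the members were chosen with earlier results of these data known. The wild-type and the NOX1 deficient cells were each hybridised to 1 array, and each sample is labelled as coming from 3 male C57BL/6 mice. NOX1 is a catalytic subunit of the NADPH oxidases, enzymes that produce superoxide. Both cultures were at passage 3, were seeded at 150000 cells per well of 12-well plates and grew for 24 hours in medium with 10% serum (DMEM/F-12). The NOX1-deficient sample is titled as coming from KO (knockout) mice. The labels do not say how the gene was inactivated in them or whether the mice of a group were pooled.

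MicroRNAs are short RNAs that pair with messenger RNAs, mainly through a seed at their 5′ end (bases 2 to 8), and lower their translation or stability. In striated muscle, miR-1 and miR-133 are made from shared primary transcripts that depend on serum response factor and myogenic or cardiac factors. Of these, miR-1 is known for promoting the differentiation of muscle cells and miR-133 for effects on their proliferation. MiR-206 is enriched in skeletal muscle. MiR-208a and miR-499 are processed from introns of myosin heavy chain genes and take part in the control of myosin isoforms and fibre type. In vascular smooth muscle, miR-1 and miR-133 have been described as regulators of the switch between contractile and proliferative states.

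Mature sequences are shown for the 4 members that matched an entry in the RefSeq annotation of the mouse build GRCm38.p6, because the groups below are read by their seeds. The seed, bases 2 to 8 counted from the 5′ end, is in capitals.
miR-206-3p: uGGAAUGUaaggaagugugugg
miR-133b-3p: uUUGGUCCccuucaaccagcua
miR-208a-3p: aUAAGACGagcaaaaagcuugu
miR-499-5p: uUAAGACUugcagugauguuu
The mature miR-206-3p lies at chr1:20679055-20679076 and miR-133b-3p at chr1:20682834-20682855, both on the plus strand. Their hairpins are 3686 bases apart, and both lie within the long non-coding RNA gene Lincmd1, a transcript known from muscle differentiation. The mature miR-208a-3p lies at chr14:54949072-54949093 on the minus strand, within Myh6, which encodes the alpha cardiac myosin heavy chain. The mature miR-499-5p lies at chr2:155622893-155622913 on the plus strand, within Myh7b, another myosin heavy chain gene. The seeds of miR-208a-3p and miR-499-5p share 6 of 7 bases and differ by G8U, with the base of miR-208a-3p first. MiR-206-3p and miR-133b-3p share 1 of 7 seed bases, although their genes are neighbours. MiR-1 and miR-206 are known to belong to one seed family, and miR-133a and miR-133b to another. MiR-1a-3p and miR-133a-3p matched no entry in the annotation, so the seed matches given next leave them out. Of the other mature mouse miRNAs in the same annotation, miR-208b-3p has the seed of miR-208a-3p, and miR-6349 and miR-6382 have that of miR-206-3p. In that annotation 0 have the seed of miR-133b-3p or of miR-499-5p. The array files pair none of those names with an identifier, so no intensity was assigned to them.

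Of the 6 members, 3 gave no intensity. For each feature and array the table lists either 1 intensity, linear and in arbitrary units, or the word null. MiR-1a-3p, the most abundant miRNA of cardiac muscle, was null in both genotypes. MiR-208a-3p, a heart-specific miRNA, was null on both arrays as well. MiR-499-5p, its near relative by seed, was likewise null on both. Both miRNAs from myosin genes were null and both miR-133 forms were listed. In the miR-1 and miR-206 family, miR-206-3p alone was listed. With 6 members this is a description, and no pattern by role was tested. Thus 3 of 6 members were null on both arrays, against 140 of all 739 features (18.9%). The labels do not state what a null stands for. It may mark a spot that was too dim or one that was discarded, so the 3 members cannot be called absent from the cells, and no fold was computed for them.

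The 3 listed members were dim. MiR-206-3p, the skeletal muscle member, read 2.18 units in the wild-type sample and 2.53 units in the one without NOX1. MiR-133b-3p, encoded beside it, read 1.78 and 1.82 units. MiR-133a-3p, which comes from the miR-1 transcripts, read 1.05 and 1.95 units. All 6 values lay below the median listed intensity of their array, which was 3.31 units for wild-type and 3.42 units for NOX1-deficient cells. Every one lay within 2.72 times the lowest intensity listed on its array, which was 0.96 units for wild-type and 0.93 units for NOX1-deficient cells. At the nearest, miR-133a-3p in wild-type cells read 1.09 times that lowest value. The brightest feature reached 51870 units with NOX1 present and 51059 units without it, at least 20181 times any member. Summed, the 3 listed members made up 0.00437% of the total intensity in wild-type and 0.00562% in NOX1-deficient cells. Probes differ in affinity and labelling, so intensities of different miRNAs do not give their relative abundance.

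**Figure D1:**
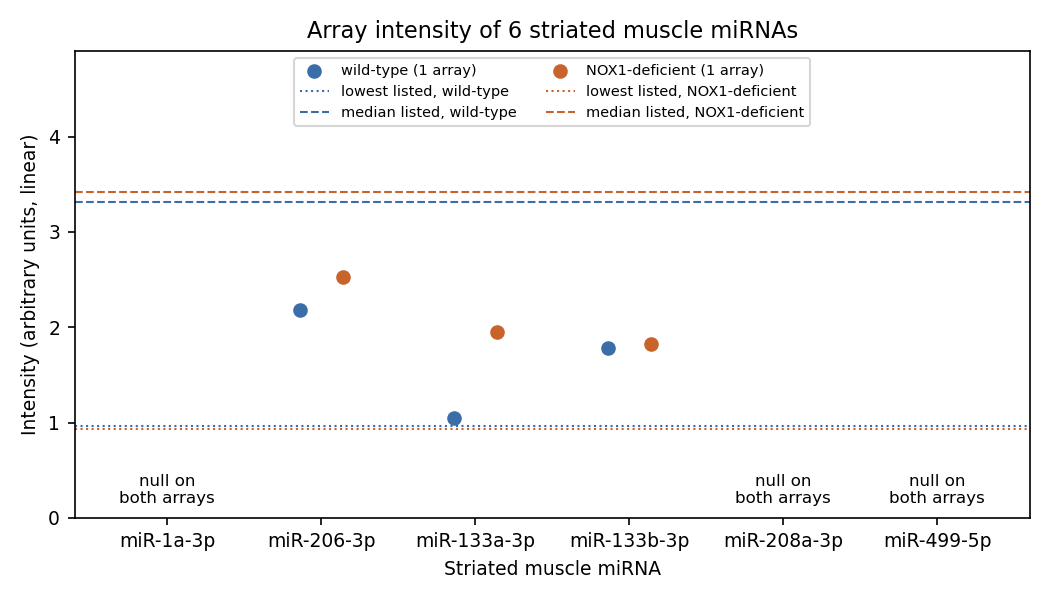
Intensity in arbitrary units on a linear axis for each of the 6 miRNAs, with 1 point per array; dotted lines mark the lowest and dashed lines the median intensity listed on each array, and there are no error bars because each genotype has 1 array. The 3 listed miRNAs lie between 1.05 and 2.53 units, below both medians, and the other 3 were null on both arrays.

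Each listed member was placed among the features of its own array. In wild-type cells 36.6% of the 546 listed features were dimmer than miR-206-3p, and in NOX1-deficient cells 42.7% of 525. For miR-133b-3p the shares were 29.1% and 29.5%. For miR-133a-3p they were 3.66% and 33.7%. The position of miR-133b-3p was therefore nearly the same on both arrays, while miR-133a-3p was among the dimmest features of the wild-type array but not of the other. MiR-133a and miR-133b are nearly identical in sequence, and how far the probes tell them apart was not tested.

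The genotype comparison asked whether the miRNAs of the smooth muscle cells differ without NOX1. With 1 array per genotype it has no replicate check and no test, and whether a difference exceeds the spread between cultures is unknown. MiR-133a-3p was 0.90 units higher in NOX1-deficient than in wild-type cells, which is 1.86-fold (log2 difference 0.89). MiR-206-3p was 0.35 units higher, or 1.16-fold (log2 difference 0.21). MiR-133b-3p was 0.04 units higher, or 1.02-fold (log2 difference 0.03). All 3 listed members therefore read higher without NOX1, by a median of 0.21 on the log2 scale. For miR-133a-3p the direction was nearly set by its wild-type value of 1.05 units. The lowest value listed for NOX1-deficient cells was 0.93 units, so it had little room to read lower and still be listed. Over the 472 features listed on both arrays, 50.2% read higher and the median was 0.004. In the brightness class of the miR-133 forms, described below, 51.6% read higher and the median was 0.03. MiR-133b-3p thus lay at the median of its class. In the class of miR-206-3p, 43.6% read higher and the median was -0.16.

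At a 2-fold threshold, 0 of the 3 listed members were higher and 0 were lower in NOX1-deficient cells. Of all 472 features, 1 (0.212%) was at least 2-fold higher and 8 (1.69%) were at least 2-fold lower. At 1.5-fold, 1 of 3 members, miR-133a-3p, was higher and 0 were lower, against 19 features (4.03%) higher and 34 (7.20%) lower. A set of 3 is too small to be read against those shares. None of the 3 was among the 236 brighter features, those at or above the median brightness, which began at a mean of 4.43 units.

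Features as dim as the members differed widely between the arrays. The 472 features were divided into 5 classes of about equal size by mean log2 intensity. MiR-133a-3p and miR-133b-3p fell in the dimmest class (95 features, mean intensity 0.998 to 1.80 units), where the log2 difference had an SD of 0.47 and ran from -1.21 to 1.12. There, 3 of the 95 features, miR-133a-3p included, had a difference at least as high as that of miR-133a-3p, and 8 had one at least as far from 0 in either direction. For miR-133b-3p, 93 of 95 were at least as far from 0. MiR-206-3p fell in the next class (94 features, SD 0.51, median -0.16), where 26 were at least as high and 71 at least as far from 0. In the brightest class the SD was 0.17. Among features listed on both arrays, the difference of miR-133a-3p thus stood near the upper end for its brightness. Those of miR-133b-3p and miR-206-3p were within 1 SD of their class's median. The 127 features listed on 1 array only have no difference, so the spread of these classes leaves them out.

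**Figure D2:**
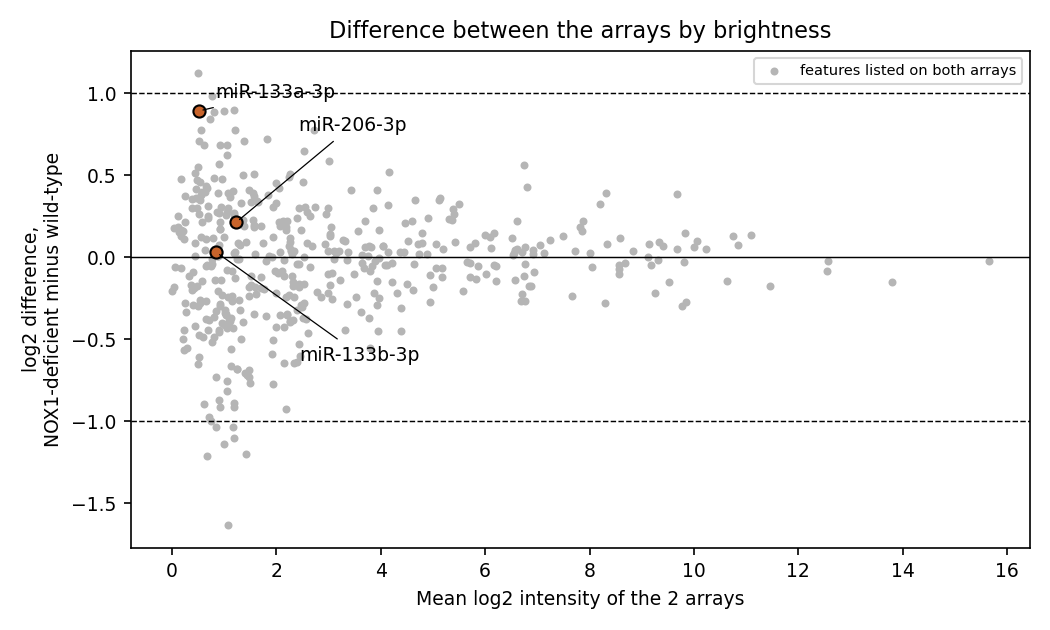
The difference on the log2 scale (NOX1-deficient over wild-type) against mean log2 intensity for the 472 features listed on both arrays (grey points), with the 3 listed muscle miRNAs as orange points and dashed lines at a 2-fold difference. The muscle miRNAs sit at the dim end, where differences spread most, and miR-133a-3p at 0.89 lies just inside the 2-fold line.

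The share of features that were null on the other array was read near each member's brightness. Over all listed features, 74 of 546 in wild-type cells (13.6%) were null on the NOX1-deficient array, and 53 of 525 in NOX1-deficient cells (10.1%) were null on the wild-type array. Of the 65 other features within 20% of the wild-type value of miR-133a-3p, 34 (52.3%) were null on the NOX1-deficient array. Around the wild-type value of miR-133b-3p this was so for 22 of 93 (23.7%). Around that of miR-206-3p it was so for 7 of 87 (8.05%). In wild-type cells the share was thus above that of the whole array near both miR-133 forms and below it near miR-206-3p. In reverse, near the NOX1-deficient values of miR-133a-3p, miR-133b-3p and miR-206-3p, 7.55%, 11.5% and 6.67% of neighbours were null in wild-type cells, near or below the share of the whole array. The whole-array shares of 13.6% and 10.1% count bright features as well, which lowers them. No feature above 2.28 units in wild-type cells was null in NOX1-deficient cells, and none above 2.93 units in NOX1-deficient cells was null in wild-type cells. All 6 listed values of the members thus lay in the range where a feature could be listed on 1 array and null on the other, although for these miRNAs both arrays agreed on listing. In the whole table, 127 features (17.2%) were listed on 1 array only, and 0 of the 6 members were.

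**Figure D3:**
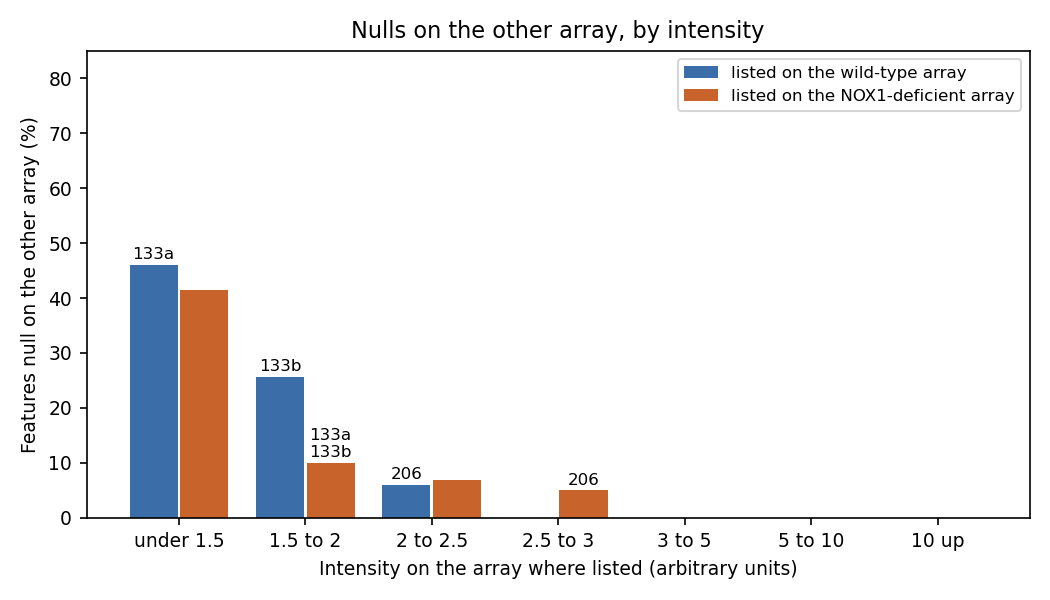
Share of features (%, axis from 0) that were null on the other array, by intensity in arbitrary units on the array where they were listed, with blue bars for the wild-type and orange bars for the NOX1-deficient array; numbers above bars show where miR-133a-3p, miR-133b-3p and miR-206-3p fall. The share fell from 46.1% and 41.4% below 1.5 units to 0% from 3 units up, and every listed muscle miRNA falls below 3 units.

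By likeness over the 2 arrays, each listed member had close neighbours among features the files leave unnamed. The feature nearest to miR-133a-3p, by distance in log2 intensity, read 1.12 and 1.92 units. The nearest to miR-133b-3p read 1.80 and 1.86 units, and the nearest to miR-206-3p read 2.08 and 2.51 units. With 2 arrays, such likeness says no more than that the features read alike on each, in dimness and in the difference between the arrays.

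Among the 4 members whose sequence is shown above, the listed ones held more G and C. MiR-133b-3p has 11 such bases of 22 and miR-206-3p has 10 of 22, and both were listed. MiR-208a-3p has 8 of 22 and miR-499-5p has 7 of 21, and both were null. Whether probe composition plays a part in which members were listed was not tested. The smooth muscle identity of the cells was not checked here, because miR-143, miR-145 and the miRNAs of endothelial, blood and epithelial cells carry no names in the files. The array carries miRNA features, so NOX1 itself was not checked either.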

How the data were processed

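Per the labels' protocols, RNA came from a miRNeasy mini kit extraction and carried the dye Hy5 (miRCURY LNA kit). The authors deposited 1 intensity per feature and array; the labels name no background correction, scaling or detection limit, and a linear scale was read from the values. Here members were matched by identifier, ranked within each array, and compared as log2(NOX1-deficient) minus log2(wild-type) with no pseudocount. Nulls stayed missing. With 1 array per genotype no test was run, and the number of arrays limits the precision. The members and lists were chosen with earlier results of these data known. The planned lists of related muscle, smooth muscle and other cell type miRNAs, and the seed mates on the array, could not be evaluated, since the reference tables hold none of the identifiers; for the same reason the 2 nearest features per member, fixed by rule, are given without names and 1 per member is described. Alternatives were median centring, quantile normalization, loess (span 0.4), added constants of 1 and 50, nulls at the lowest listed intensity, a 1.5-fold threshold, a minimum of 2 units and ranks over features listed on both arrays. Tools were Python 3.11.15, numpy 2.4.6, pandas 2.3.3, statsmodels 0.14.6 and matplotlib 3.10.9.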

Additional observations from a re-analysis of the deposited data

How the results depend on the processing

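The log2 differences of miR-133a-3p, miR-133b-3p and miR-206-3p stayed positive with quantile normalization and loess, the settings that could have reversed them. Median centring raised every feature here, and an added constant shrinks a difference without changing its sign. For miR-133a-3p the deposited 0.89 became 0.99 with median centring, which adds 0.10 to every feature, 0.98 with quantile normalization, 0.88 with loess, 0.53 with log2(intensity + 1) and 0.0252 with log2(intensity + 50), a constant far above the signal. For miR-206-3p the deposited 0.21 became 0.28 to 0.34 with these scalings, 0.15 with the constant of 1 and 0.00965 with that of 50. For miR-133b-3p the deposited 0.03 became 0.07 to 0.13, 0.0206 and 0.00111. The count of members at least 2-fold higher, 0, became 1 at a 1.5-fold threshold and stayed 0 with the scalings. It was also 0 with the constant of 50 and with nulls at the lowest listed intensity, but neither setting could raise it. The constant shrinks every difference, and the 3 null members were null on both arrays and left out. The count lower was 0 in each of these settings. Requiring 2 units took the listed members from 3 to 1 on each array, leaving miR-206-3p. Ranking over features listed on both arrays lowered the 6 positions by 2.2 to 9.6 percentage points. No paired analysis was possible because the study has 1 wild-type and 1 NOX1-deficient array, and no replicate could be left out.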
